A study of Mus musculus with 7 samples.

Results

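Heme is built from glycine and succinyl-CoA in a chain of enzymes that starts with Alas1 in the liver and most other tissues or Alas2 in red cell precursors and ends with Fech, is carried in blood by the globins, and is opened by Hmox1, while hepcidin (Hamp) sets how much iron leaves cells through ferroportin (Slc40a1). This system was followed here through 10 genes, Alas1, Alas2, Fech, Hmox1, Hba-a1, Hbb-b1, Hamp, Hamp2, Tfrc and Slc40a1, taken by name from an Agilent one-colour array of mouse genes. All 10 were present, on 14 of the 55681 non-control probes, among 36413 gene names in all. They were found on the array by gene name.

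The arrays measured liver RNA of 3 wildtype (WT) mice and 4 SHIVA mice, 1 array per mouse. All were female C57BL/6 mice of 8 to 12 weeks that had been without food for 24 h, so every value describes the fasted state. SHIVA mice carry 1 mutant copy of Sox17, a transcription factor of endoderm and endothelium, with a missense change in its DNA-binding HMG domain. The line came from chemical (ENU) mutagenesis and was backcrossed to C57BL/6, and all viable carriers are heterozygous. The mutation is carried in every tissue, not in the liver alone. All arrays sat on 1 slide read in 1 scan, and the genotypes filled separate rows of it (WT row 1, SHIVA row 2), so genotype and slide row cannot be told apart.

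Most of the liver's heme is used for cytochromes P450, and Alas1 is its rate-limiting step, induced by fasting and repressed by heme itself. Hepatocytes also secrete hepcidin, which binds ferroportin and sends it for degradation. BMP-SMAD signalling raises hepcidin when iron is plentiful, and IL-6 acting through STAT3 raises it in inflammation. Globin and Alas2 transcripts are made in red cell precursors and remain for a time in young circulating red cells, so whole liver holds some of them with its blood. In bulk tissue, fewer cells of a type and less RNA per cell cannot be told apart, and the same holds for the amount of blood left in a liver.

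The sequences of the hepcidin genes are shown first because C57BL/6 mice carry this gene as a pair, and the array reads each member with its own probe. The probes, from the array's annotation, lie on the minus strand at chr7:31727490-31727549 (Hamp) and chr7:31707520-31707579 (Hamp2) of mm9. Capitals mark letters that differ between them when the overlapping bases are lined up, with the Hamp2 probe starting 1 base later.
Hamp probe: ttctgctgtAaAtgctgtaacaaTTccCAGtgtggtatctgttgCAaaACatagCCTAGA
Hamp2 probe: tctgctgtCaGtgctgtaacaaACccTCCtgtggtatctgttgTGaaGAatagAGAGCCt
The probes shared 42 of 59 overlapping bases, and the longest run in common was 14 bases. The 250 bases before each gene's start, from RefSeq (GRCm38.p6), are chr7:30944030-30944279 for Hamp and chr7:30924182-30924431 for Hamp2, both on the minus strand. Capitals mark matches to GGCGCC, a BMP-responsive element, and to TTCTTGGAA, a STAT-type element, searched on both strands.
Hamp promoter: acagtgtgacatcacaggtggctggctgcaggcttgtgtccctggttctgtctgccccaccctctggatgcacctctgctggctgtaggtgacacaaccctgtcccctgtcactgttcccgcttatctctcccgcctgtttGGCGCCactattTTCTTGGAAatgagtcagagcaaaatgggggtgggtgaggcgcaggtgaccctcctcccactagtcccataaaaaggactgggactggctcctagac
Hamp2 promoter: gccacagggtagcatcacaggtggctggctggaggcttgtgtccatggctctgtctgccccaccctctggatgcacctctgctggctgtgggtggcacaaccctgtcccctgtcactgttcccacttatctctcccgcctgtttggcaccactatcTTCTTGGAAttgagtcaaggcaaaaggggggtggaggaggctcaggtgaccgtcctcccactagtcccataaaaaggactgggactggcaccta
The promoters were identical at 227 of 247 aligned bases (91.9%). Both held TTCTTGGAA, which 0.365% of 32851 mouse promoters of this length hold. Hamp held GGCGCC, 109 to 104 bases before its start, and Hamp2 had no match to it in this window. GGCGCC occurs in 9.59% of all promoters.

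The promoters of the erythroid members are shown because Alas2 and the globins had like profiles over the livers. Capitals mark matches on either strand to 3 motifs of red cell promoters. The motif GATAA, bound by factors such as GATA1, is in 22.6% of all promoters of this length. The KLF-type motif CCNCNCCC, bound by factors such as KLF1, is in 45.9%. The box known as CCAAT is in 33.8%. The regions in GRCm38.p6 are chrX:150547167-150547416 on the plus strand (Alas2), chr11:32283422-32283671 on the plus strand (Hba-a1) and chr7:103813924-103814173 on the minus strand (Hbb-bt). RefSeq gives the name Hbb-bt to the transcript that the array calls Hbb-b1.
Alas2 promoter: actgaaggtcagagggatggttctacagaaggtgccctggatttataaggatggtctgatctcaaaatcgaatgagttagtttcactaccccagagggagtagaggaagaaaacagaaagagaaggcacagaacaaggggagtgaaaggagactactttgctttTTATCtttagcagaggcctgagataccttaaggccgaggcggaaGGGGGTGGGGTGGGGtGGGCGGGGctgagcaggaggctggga
Hba-a1 promoter: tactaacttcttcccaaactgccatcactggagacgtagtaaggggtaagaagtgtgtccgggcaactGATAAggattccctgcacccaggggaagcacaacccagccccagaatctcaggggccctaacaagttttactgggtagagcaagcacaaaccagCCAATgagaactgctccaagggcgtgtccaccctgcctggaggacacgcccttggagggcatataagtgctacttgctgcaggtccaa
Hbb-bt promoter: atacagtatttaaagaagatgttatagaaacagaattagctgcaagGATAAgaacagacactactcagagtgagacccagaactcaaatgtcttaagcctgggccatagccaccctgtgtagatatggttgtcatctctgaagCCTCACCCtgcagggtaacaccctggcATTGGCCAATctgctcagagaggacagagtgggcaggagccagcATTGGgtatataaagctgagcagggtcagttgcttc
Each of the 3 promoters held 1 match to GATAA. The KLF-type motif had 4 matches in Alas2, some overlapping, 1 in Hbb-bt and none in Hba-a1. The CCAAT box had 3 matches in Hbb-bt, 1 in Hba-a1 and none in Alas2. The adult alpha-globin gene pair, Hba-a1 and Hba-a2, had the same promoter letters at 247 of 247 aligned bases. The Hba-a1 probe (chr11:32183955-32184014, mm9, plus strand) is annotated to transcripts of both alpha-globin genes, so its signal cannot be given to either alone.
Hba-a1 probe: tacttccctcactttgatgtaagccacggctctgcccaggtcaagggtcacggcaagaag

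No gene of the 10 passed the threshold between SHIVA and WT livers (limma, adjusted p under 0.05 over 19972 genes tested), where 0.376% of all genes tested did. The means of 8 of the 10 were higher in SHIVA and those of 2, Alas1 and Hamp, were lower. Their median log2 fold change was 0.35, against -0.01 over all genes tested. At an unadjusted p under 0.05 there were 2, Alas2 and Hbb-b1, both higher in SHIVA, where 13.3% of all genes reached that level in either direction and 7.25% were higher in SHIVA. By the methods' t-test 0 passed after adjustment, and Alas2 and Fech, not Hbb-b1, were under 0.05 before it. In Alas2 and Hbb-b1 every SHIVA liver was above every WT liver, which is 2 of 10 beside 6.14% of all genes tested; in the other direction it was 0 of 10 beside 6.02%. Values are log2 normalized signals, in which a difference of 1 is a doubling, and they can be compared between livers for 1 probe but not between probes.

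**Figure D1:**
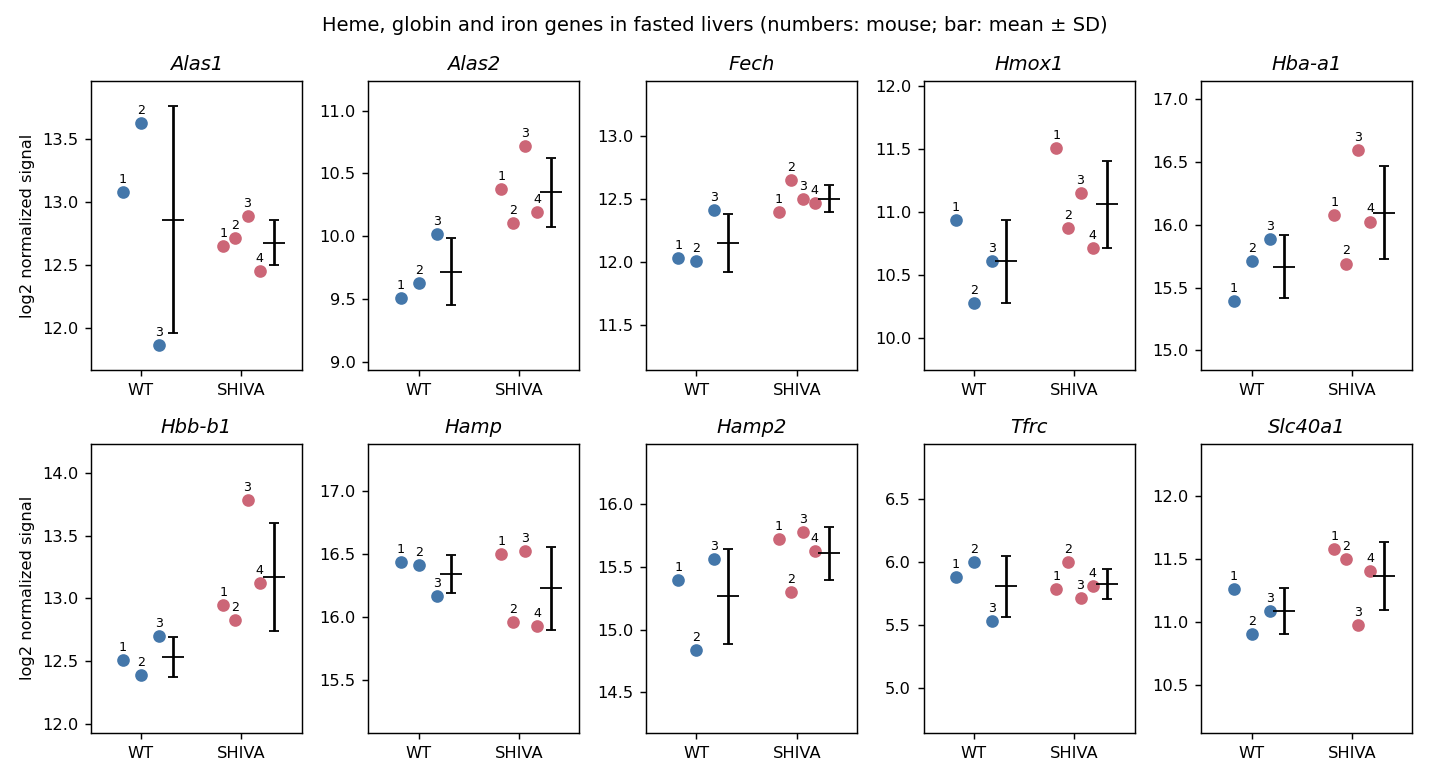
Log2 normalized signal of the 10 genes in 3 WT (blue) and 4 SHIVA (red) livers, with the mouse number above each point, the mean and SD beside each group, and the same axis length in every panel. Alas2 and Hbb-b1 do not overlap between the groups, and the WT values of Alas1 run from 11.87 to 13.63.

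All 10 genes were well above background on all 7 arrays. Per array, the share of probes past that mark was 44.5% to 48.8%, and no spot was saturated. The tissue label fitted its markers: all 9 hepatocyte markers (Alb, Apoa2 and Serpina1a the brightest) were well above background on every array. The summed signal of these 9 was 20.33 to 20.43 in WT and 20.27 to 20.38 in SHIVA (log2). Its brightest genes lie among the highest signals of every array, where quantile normalization sets nearly equal values. This sum therefore cannot compare hepatocyte content between the groups.

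Among the enzymes of heme synthesis, Alas2, the form used by red cell precursors, gave the smallest p of the 10 genes. Its probe (chrX:147004993-147005052, mm9) read 9.51, 9.63 and 10.02 in the WT livers and 10.38, 10.10, 10.72 and 10.20 in the SHIVA livers. The lowest SHIVA liver lay just above the highest WT liver. The mean of 3 WT livers was 9.72 ± 0.27 and that of 4 SHIVA livers 10.35 ± 0.27 (SD here and throughout). That is a log2 fold change of 0.63 (SE 0.20, 95% interval 0.17 to 1.09), or 1.55-fold, and missed the threshold with a limma adjusted p of 0.238.

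Fech, ferrochelatase, inserts iron into protoporphyrin as the last step. Its signals were 12.03, 12.01 and 12.42 in WT and 12.40, 12.66, 12.50 and 12.47 in SHIVA. WT 3 lay above SHIVA 1, so the groups overlapped, and the other WT livers were below all SHIVA livers. SHIVA over WT, the log2 fold change was 0.35 (SE 0.16, 95% interval -0.01 to 0.71; limma adjusted p = 0.383).

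Alas1, the form that sets the rate in hepatocytes, was the most variable of the 10 genes among WT livers. Its brighter probe (chr9:106136284-106136343, mm9) read 13.08, 13.63 and 11.87 in WT and 12.65, 12.71, 12.89 and 12.46 in SHIVA. WT held both the highest and the lowest liver, and the SHIVA livers lay close together between them. The SD was 0.90 in WT and 0.18 in SHIVA. The log2 fold change of -0.18 (SE 0.36) had a wide 95% interval, -1.01 to 0.65 (limma adjusted p = 0.872). It was -0.68 without WT 3, -0.07 without WT 1 and 0.20 without WT 2, so its direction rested on WT 2. A second Alas1 probe (chr9:106135796-106135855) gave a larger difference in the same direction, from 9.37 ± 0.52 to 8.76 ± 0.14 (log2 fold change -0.61, SE 0.24), which also missed the threshold (limma adjusted p = 0.333 in the fit of all probes).

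The enzymes between these ends did not share one direction. Of all 9 synthesis enzymes, 0 passed the threshold, 2 had a higher mean in SHIVA (Alas2 and Fech) and 7 a lower one, with a median log2 fold change of -0.03. Cpox, coproporphyrinogen oxidase, ran from 9.83 to 11.02 in WT and from 9.46 to 10.06 in SHIVA, a log2 fold change of -0.81 (SE 0.28, limma adjusted p = 0.267). Alad, which makes porphobilinogen, was at -0.07 (SE 0.19). The 11 genes that move iron and porphyrins across mitochondrial membranes had 0 past the threshold and a median of -0.02. Among them, Slc25a28, a mitochondrial iron importer, was at -0.33 (SE 0.16) and Abcb10, a transporter of the inner membrane, at 0.23 (SE 0.17).

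**Figure D2:**
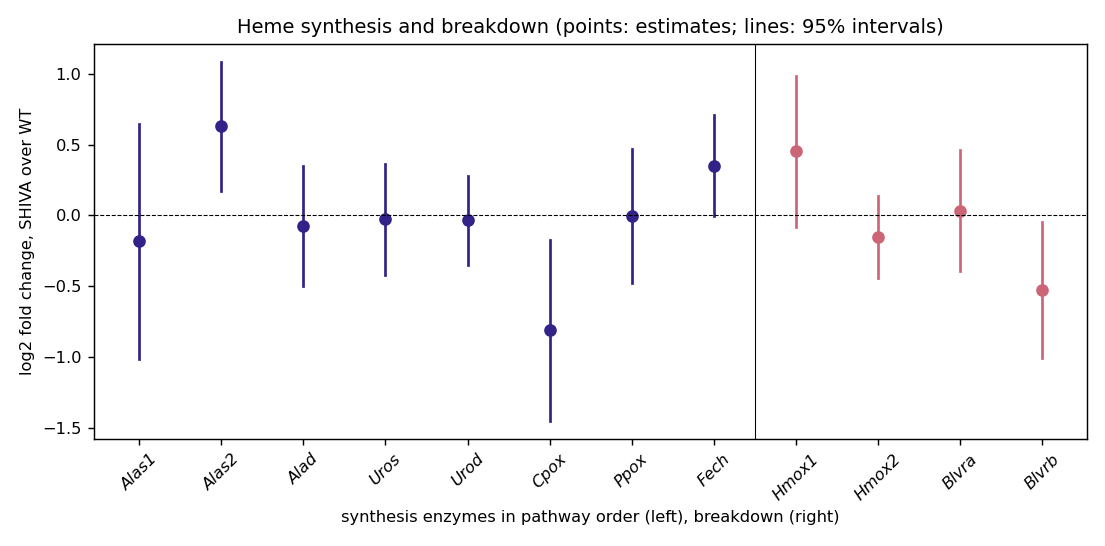
Log2 fold change, SHIVA over WT, of 8 heme synthesis enzymes in pathway order (blue) and the heme breakdown enzymes (red), each point with its 95% interval. Alas2 (0.63) lies above 0 and Cpox (-0.81) and Blvrb (-0.53) lie below it with intervals that leave out 0, but none passed the threshold after adjustment.

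Hmox1, heme oxygenase, opens heme into biliverdin, carbon monoxide and iron, and in liver it is active mainly in macrophages. Its brighter probe (chr8:77624207-77624266, mm9) read 10.94, 10.28 and 10.61 in WT and 11.51, 10.88, 11.15 and 10.72 in SHIVA. WT 1 lay above SHIVA 2 and SHIVA 4. Here the log2 fold change was 0.45 (SE 0.23, 95% interval -0.08 to 0.99; limma adjusted p = 0.455), and 0.29 without WT 2. The second probe also gave 0.29 (SE 0.22, adjusted p = 0.625 in the fit of all probes). The Kupffer cell and macrophage markers were higher in mean in SHIVA for 11 of 12. Their summed log2 signal was 14.47 to 15.52 in WT and 14.92 to 16.02 in SHIVA, with Csf1r, Cd5l and Clec4f the brightest, and their part in the Hmox1 values was not tested.

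Of 11 genes of heme breakdown, binding and transport, 0 passed the threshold, 6 were higher and 5 lower in mean, with a median of 0.03. Cd163, the macrophage receptor for haptoglobin-hemoglobin complexes, was the one Kupffer marker with a lower mean: 5.12, 5.13 and 5.72 in WT against 3.25, 4.39, 4.23 and 4.10 in SHIVA. Its groups did not overlap, and it was well above background in 3 of the 4 SHIVA livers. The log2 fold change was -1.33 (SE 0.29, limma adjusted p = 0.124). Hpx, hemopexin, which binds free heme in plasma, ran from 16.93 to 17.27 in WT and from 17.36 to 17.87 in SHIVA (0.47, SE 0.17, limma adjusted p = 0.282). Blvrb, biliverdin reductase B, was at -0.53 (SE 0.21, limma adjusted p = 0.334).

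The adult globins had the same direction in both chains. Hbb-b1, adult beta-globin (chr7:110961105-110961164, mm9), read 12.51, 12.39 and 12.70 in WT and 12.95, 12.83, 13.79 and 13.12 in SHIVA. No SHIVA liver was below a WT liver, and SHIVA 3 stood well above the rest. The mean went from 12.53 ± 0.16 (n = 3) to 13.17 ± 0.43 (n = 4), a log2 fold change of 0.64 (SE 0.24, 95% interval 0.10 to 1.18), or 1.56-fold, with a limma adjusted p of 0.294. Without SHIVA 3 the log2 fold change was 0.43.

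Hba-a1, adult alpha-globin, read 15.39, 15.71 and 15.89 in WT and 16.07, 15.69, 16.59 and 16.03 in SHIVA. SHIVA 2 lay among the WT livers, and the log2 fold change was 0.43 (SE 0.23, 95% interval -0.09 to 0.95; limma adjusted p = 0.465) and 0.27 without SHIVA 3. The partner genes were alike: Hba-a2 read 16.46 to 16.81 in WT and 16.83 to 17.42 in SHIVA (0.40, SE 0.18), and Hbb-b2 read 10.82 to 11.05 and 10.91 to 12.02 (0.46, SE 0.24). The Hbb-b2 probe has no mm9 position in the array's annotation. C57BL/6 mice carry other beta-globin copies (Hbb-bs and Hbb-bt), so this probe may read those and not a gene of its own. Transcripts of such near-identical copies can bind one another's probes, so the 4 probes may not measure 4 genes separately.

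SHIVA 3 held the highest value of Alas2, Hba-a1, Hba-a2, Hbb-b1 and Hbb-b2 alike. All 5 globin names tested, Hbb-b2 included, were higher in mean in SHIVA, with a median of 0.43 and 0 past the threshold. Cygb, cytoglobin, a globin of stellate cells and not of blood, was at 0.31 (SE 0.19, limma adjusted p = 0.524). The embryonic Hba-x was not well above background on any array.

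**Figure D3:**
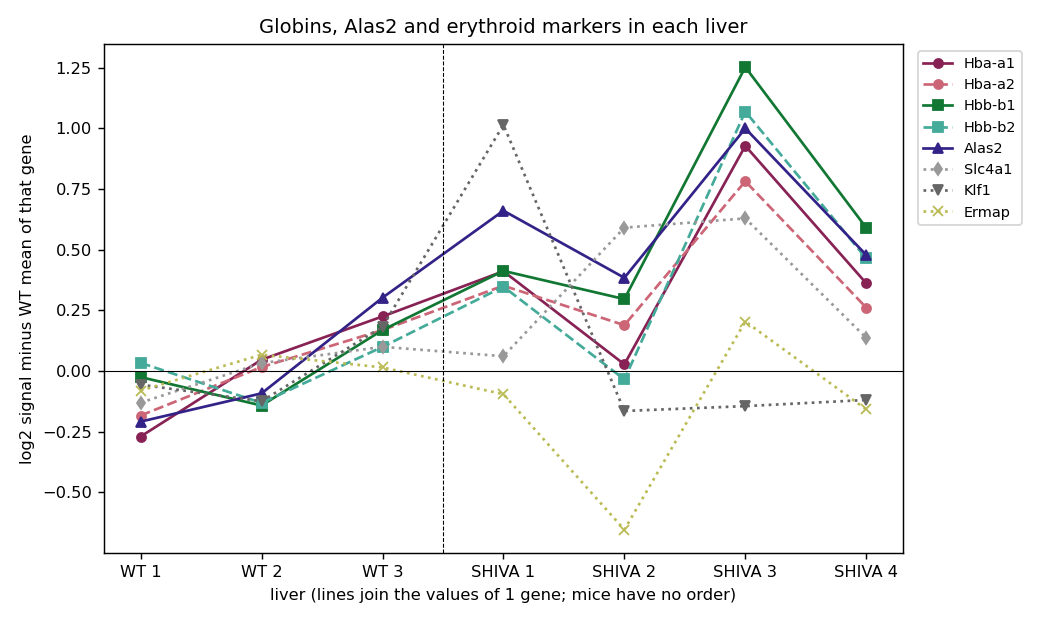
Log2 signal of each gene minus its own WT mean in the 7 livers, for adult globins and Alas2 (solid or dashed lines) and for Slc4a1, Klf1 and Ermap (dotted). Globins and Alas2 peak together in SHIVA 3, where Slc4a1 and Ermap are also highest. Klf1, a transcription factor of red cell precursors, is highest in SHIVA 1.

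Markers of red cell precursors were mostly too dim to read. Of 19 erythroid markers on the array, 8 were tested, and 9, among them Gata1, Rhag and Kel, were not well above background on any array. Ahsp and Trim10 were so on 1 SHIVA array each, and are named after their values were seen. None of the 8 passed the threshold, 6 were higher and 2 lower in mean, and the median was 0.09. Slc4a1, the red cell anion exchanger, was at 0.35 (SE 0.19, limma adjusted p = 0.466) and Tspan33 at 0.29 (SE 0.17, limma adjusted p = 0.496). The summed signal of the 19 was 10.46 to 10.58 in WT and 10.53 to 10.71 in SHIVA, while that of the globins was 17.12 to 17.50 and 17.46 to 18.17. Both sums overlapped between the groups. The summed platelet markers were 7.37 to 7.76 in WT and 7.61 to 8.38 in SHIVA, and the neutrophil markers 9.96 to 10.84 and 9.91 to 11.52. The part of blood cells in the globin and Alas2 values was not tested.

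Hepcidin, encoded by Hamp, is the hormone that limits iron release into plasma. Hamp read 16.44, 16.41 and 16.17 in WT and 16.50, 15.96, 16.53 and 15.93 in SHIVA. The SHIVA livers fell into a higher pair (1 and 3) and a lower pair (2 and 4), with all WT livers between them. The difference of means was -0.11 on the log2 scale (SE 0.20, 95% interval -0.57 to 0.35; limma adjusted p = 0.858).

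Hamp2, its neighbour and near copy, read 15.40, 14.84 and 15.56 in WT and 15.72, 15.30, 15.78 and 15.63 in SHIVA. SHIVA 2 lay below WT 1 and WT 3, and the other SHIVA livers were above all WT livers. The log2 fold change was 0.34 (SE 0.21, 95% interval -0.14 to 0.82; limma adjusted p = 0.540), and 0.13 without WT 2. The probes of the gene pair thus gave means of opposite direction, and the difference between the genes was not tested.

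The 29 tested genes of hepcidin control, a list that counts Hamp and Hamp2 themselves, split evenly, 15 higher and 14 lower in mean. Of these, 0 passed the threshold, and the median was 0.01. Acvr1, a BMP type I receptor, read 8.47 to 8.60 in WT and 8.87 to 9.12 in SHIVA (0.44, SE 0.14, limma adjusted p = 0.233). Hfe2, hemojuvelin, the BMP co-receptor needed for hepcidin expression, read 10.34 to 10.55 in WT and 9.85 to 10.14 in SHIVA (-0.38, SE 0.14, limma adjusted p = 0.305). Neither gene overlapped between the groups, and no other of the 29 was without overlap. Among all genes tested, 12.2% did not overlap, in either direction. Socs3, a feedback target of IL-6 signalling, was at 0.73 (SE 0.35, limma adjusted p = 0.412), and Il6 itself was not well above background on any array.

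Acute phase genes were measured because inflammation acts on hepcidin. Of 19, 0 passed the threshold, 18 were higher in mean in SHIVA, and the median log2 fold change was 0.51. Itih3 was at 0.75 (SE 0.22, limma adjusted p = 0.216), Apcs, serum amyloid P, at 0.82 (SE 0.27, limma adjusted p = 0.250), and hemopexin is given above. Their summed signal was 19.60 to 19.84 in WT and 19.83 to 20.79 in SHIVA. In SHIVA 1 to 4 in turn it was 20.35, 20.79, 20.22 and 19.83, beside the Hamp values given above, and the part of inflammation in these was not tested.

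Tfrc, the transferrin receptor, brings iron into cells, and its transcript is stabilised when cells lack iron. Its main probe (chr16:32632255-32632314, mm9) read 5.88, 6.00 and 5.53 in WT and 5.79, 6.00, 5.71 and 5.81 in SHIVA. The SHIVA values lay within the WT range, and the log2 fold change was 0.02 (SE 0.16, 95% interval -0.35 to 0.39; limma adjusted p = 0.972). A second, dimmer probe (chr16:32620470-32620529) gave -0.56 (SE 0.30, limma adjusted p = 0.487 in the fit of all probes), and the third was not well above background on any array.

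Slc40a1, ferroportin, the iron exporter that hepcidin acts on, read 11.27, 10.90 and 11.09 in WT and 11.58, 11.50, 10.97 and 11.41 in SHIVA. SHIVA 3 lay among the WT livers and the other SHIVA livers above all of them. Their mean difference was 0.28 on the log2 scale (SE 0.19, 95% interval -0.15 to 0.70; limma adjusted p = 0.574).

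**Figure D4:**
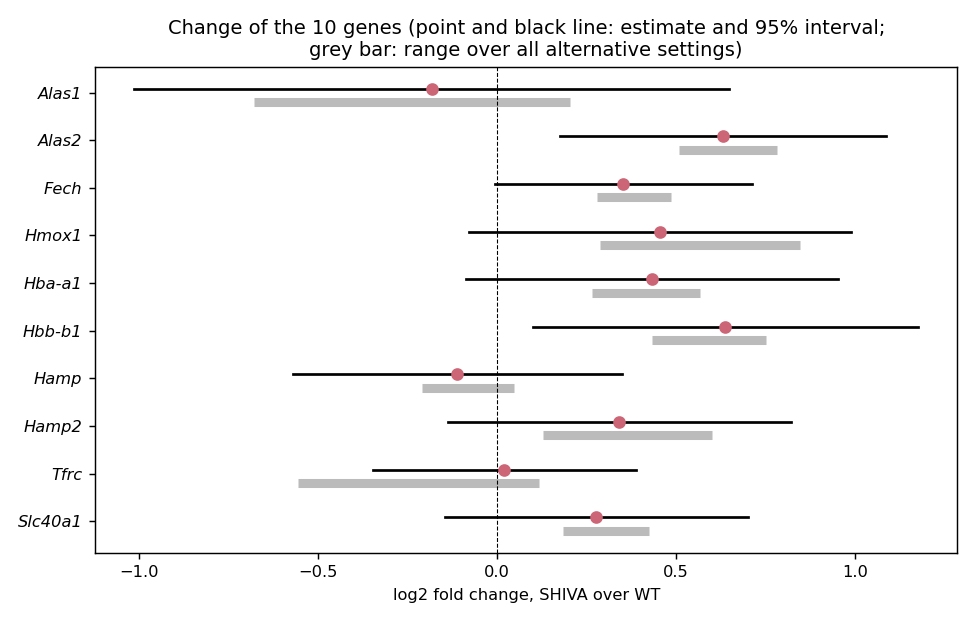
Log2 fold change, SHIVA over WT, of the 10 genes (red points) with 95% intervals (black) and the range over the alternative ways of processing (grey). The intervals of Alas2 (0.17 to 1.09) and Hbb-b1 (0.10 to 1.18) leave out 0 before adjustment for 19972 tests, and the grey bars of Alas1, Hamp and Tfrc cross 0.

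Among 20 tested genes of iron uptake, storage and export, 0 passed the threshold, 12 were higher and 8 lower in mean, and the median was 0.04. At an unadjusted p under 0.05 there were 4, all higher in SHIVA, where 7.25% of all genes tested were. Steap2, a metalloreductase, read 6.32, 6.11 and 6.50 in WT and 7.06, 7.29, 6.96 and 6.98 in SHIVA, without overlap (0.76, SE 0.16, limma adjusted p = 0.111). One of the 4, Slc11a2, the ferrous iron transporter DMT1, was well above background in 1 of 3 WT and 4 of 4 SHIVA livers, so it was tested only through the group where it was brighter. It read 3.74, 3.61 and 4.24 in WT and 5.08, 4.74, 5.09 and 4.22 in SHIVA, with overlap. Steap4, a metalloreductase that is induced in inflammation, was at 1.16 (SE 0.42, limma adjusted p = 0.283).

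The regulators of Alas1 included the gene nearest to the threshold in any list. Nr1i3, the nuclear receptor CAR, which induces Alas1 together with cytochromes P450, read 13.04, 13.11 and 13.06 in WT and 11.89, 12.15, 11.98 and 12.39 in SHIVA. The WT livers lay close together and all SHIVA livers were below them. The log2 fold change was -0.97 (SE 0.16), with a limma adjusted p of 0.0546. Ppara, the receptor of the fasting response to fatty acids, read 12.19, 12.61 and 12.33 in WT and 11.66, 11.75, 11.64 and 11.78 in SHIVA, again without overlap (-0.67, SE 0.15, limma adjusted p = 0.132). Nr1i2, the nuclear receptor PXR, was at -0.24 (SE 0.22, limma adjusted p = 0.702). Of the 10 regulators, 0 passed the threshold, 3 were higher and 7 lower in mean, and the median was -0.20. The call on Nr1i3 depended on the processing: it passed in the authors' normalized table, with mean signals, with normexp background correction, with probes above background on all 7 arrays, with array weights, and without WT 3.

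Of 13 tested genes of the NRF2 and BACH1 system, which controls Hmox1, 0 passed the threshold, 5 were higher and 8 lower in mean, and the median was -0.07. Nfe2l2, NRF2 itself, was at 0.77 (SE 0.28, limma adjusted p = 0.282), Mafg, a partner of both factors, at -0.44 (SE 0.19, limma adjusted p = 0.362) and Srxn1, a target, at -0.29 (SE 0.17, limma adjusted p = 0.525).

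**Figure D5:**
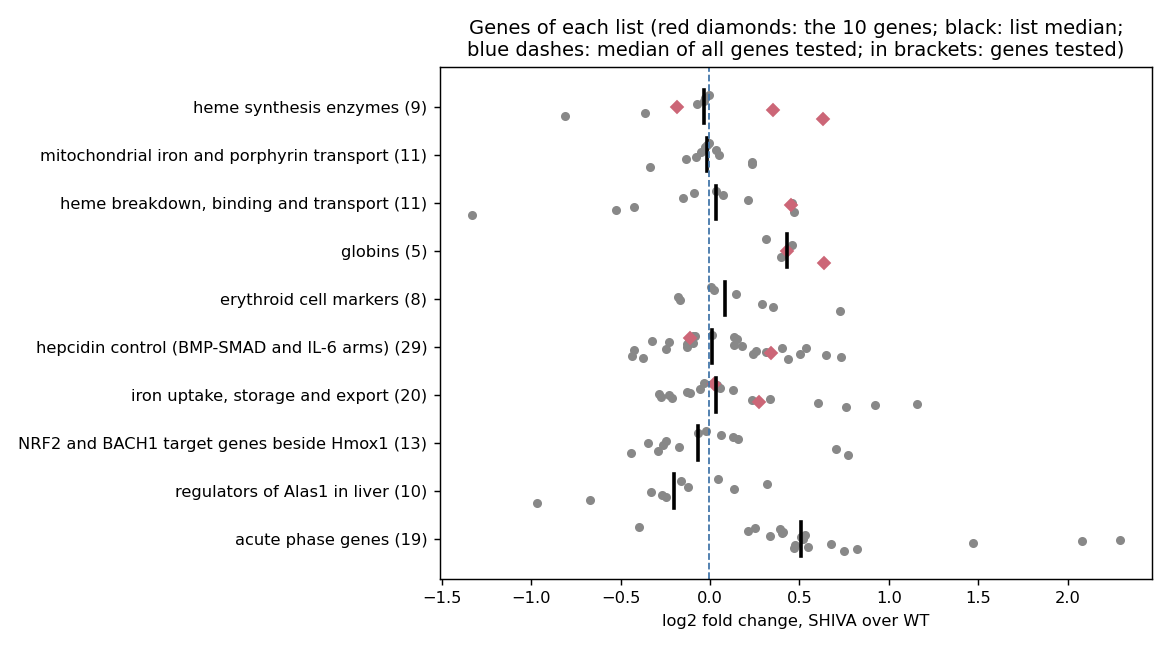
Log2 fold change, SHIVA over WT, of every tested gene in the 10 lists, with the 10 genes described here in red, the list medians in black and the median of all 19972 genes dashed in blue. Globins (median 0.43) and acute phase genes (0.51) lie to the right of the overall median of -0.01, and no gene shown passed the threshold.

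The genes whose signals were most like that of Hbb-b1 over the 7 arrays, among 19930 genes without missing values, were Isg20 (Pearson r = 0.970), Hbb-b2 (0.963), Kdelr3 (0.963), Gm8543 (0.961) and Atf3 (0.960). For Hamp they were Eme2 (0.990), Gm8545 (0.982), Nob1 (0.959), Wdr77 (0.959) and Hs3st6 (0.957). Kdelr3 was well above background in 0 of 3 WT and 3 of 4 SHIVA livers, so it was compared only through the group where it was brighter. The correlations ran over both genotypes together, so a difference between the groups enters them. Isg20, Kdelr3, Gm8543 and Atf3 were, like Hbb-b1, higher in every SHIVA liver than in every WT liver, as were 6.14% of all genes tested. They were picked for likeness to Hbb-b1 on the same arrays, so this is no separate evidence of a difference. These correlations are descriptions over arrays that share a slide, and with 7 arrays many genes can reach such values.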

How the data were processed

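Liver RNA of 3 WT and 4 SHIVA mice was hybridised to Agilent one-colour arrays with mm9 probe positions. The scanner files deposited by the authors hold spot intensity from Agilent Feature Extraction 10.5.1.1. The table the authors deposited holds log2 values, quantile normalized in R per their methods, and these kept the rank order of the uncorrected mean signal. Background-corrected intensities were taken as log2 here, with outlier spots left out, quantile normalized and averaged per probe. One probe per gene, the brightest, was kept if well above background on at least 3 arrays. SHIVA was compared with WT with limma 3.58.1 in R 4.3.3, with Benjamini-Hochberg adjustment (threshold 0.05). The number of arrays limits the precision.

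The members and gene lists were chosen with earlier results of these data known. Named genes were all members, then from each list the genes past the threshold and those of smallest p, up to 3; some list genes are counted but not reported here by name. Replicates were separate mice. Sequences were read from RefSeq tables (GRCm38.p6) and the array annotation. Alternatives were 75th percentile scaling, mean signals, normexp (offset 50), the authors' table, other filters and probe rules, array weights, a replicate block, the methods' t-test and leaving out each mouse.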

Additional observations from a re-analysis of the deposited data

How the results depend on the processing

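None of the 10 genes passed the threshold under any alternative run, and 166 of their alternative log2 fold changes kept the direction. The other 7 were Tfrc at -0.27 (mean of all probes), -0.088 (array weights), -0.56 (its other probe), -0.12 (without WT 3) and -0.037 (without SHIVA 2), Hamp at 0.047 (array weights) and Alas1 at 0.20 (without WT 2). With 1 mouse left out, Tfrc ran from -0.12 to 0.12 and Alas1 from -0.68 to 0.20. The smallest adjusted p of Alas2 was 0.0705 (limma, array weights). Over all genes, the 75 calls became 142 with mean signals and 142 in the authors' table, 13 without a filter on dim probes (of 36413 genes), 475 with array weights and 0 by the methods' t-test after adjustment (2297 at an unadjusted p under 0.05). Leaving out 1 mouse gave 3 (without WT 1) to 415 (without WT 3) calls, with 8 without WT 2, 7 without SHIVA 1 and 13 without SHIVA 3. Calls among the list genes went from 0 to 1 (Nr1i3) with mean signals, with normexp, in the authors' table and with the filter on all 7 arrays, to 4 with array weights (Nr1i3, Ppara, Steap2 and Slc11a2, the last above background in only 1 WT liver), and to between 0 and 3 with 1 mouse left out (without WT 3: Nr1i3, Cpox and Nfe2l2). The causes were not tested.

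Mouse numbers gave no clear pairing of the groups: deviations of same-numbered mice correlated at -0.05, 0.01 and 0.24. Of 3 WT mice, 1 matched its own number best (WT 3). With so few mice these values cannot exclude a pairing. With the replicate block 32 genes were called, 0 of them among the 10. SHIVA 4 has no WT mouse of its number, so it added nothing to the fold changes of that fit.

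Arrays limit small differences: the SE of the 10 log2 fold changes ran from 0.16 to 0.36.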
